A study of Mus musculus with 80 samples.

Results

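Gene expression in the kidney of wild-type (WT) mice was compared with that in brain, heart, liver and lung of WT mice. The kidney was represented by 8 of the 80 arrays of the study, chosen as those titled WT with the tissue kidney, and was set against the 32 WT arrays of the other 4 organs. The study compared WT mice with mice lacking serum carboxylesterase (Es-1, the gene Ces1c), and asked whether the latter can serve as a model for nerve agent intoxication. Total RNA from frozen tissue of both sexes was read on arrays of the type Affymetrix HT MG-430 PM, which gave 20 groups of 4 arrays by genotype, sex and organ. The WT kidneys came from 4 females (animals 876, 936, 1264 and 1265) and 4 males (901, 902, 903 and 1262). All mice of this comparison were untreated WT animals on a C57BL/6 background, and their age is not given in the labels. Arrays of the mice lacking Es-1 also entered, in the choice of probe sets and in the comparisons that name them. The same 8 animals also gave the WT brains, hearts and livers, and 5 of them gave lungs.

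The kidney filters plasma in the glomeruli and then recovers most of the filtrate along the nephron. The proximal tubule takes back glucose, amino acids, phosphate and filtered proteins and secretes organic anions and cations. The loop of Henle, the distal tubule and the collecting duct set the final salt, acid and water content of the urine. Proximal tubule cells of the mouse are known to carry many genes that depend on sex hormones.

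The organ and sex labels were checked first. In 40 of 40 WT arrays the highest marker list was that of the labelled organ, and Xist and the Y-linked Eif2s3y matched the sex given in the title of each. Umod, the uromodulin of the thick ascending limb, lay between 12.34 and 12.97 in the 8 kidneys on the log2 scale, and at 4.06 or below in the other 32 arrays. Slc34a1, a phosphate transporter of the proximal tubule, is not analysed here, as no probe set is named for it in the gene table used. Array medians ran from 3.94 to 4.22, and no detection calls were used, so values near 4 may be background and differences measured from them may understate the true ratio. Ces1c itself was low in WT kidney, with a lowest value of 3.16, a median of 3.27 and a highest of 5.21, against up to 12.63 in liver.

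Some arrays carried markers of another organ. The mean of 13 measured liver markers was 7.40 in the kidney of female 1264, against 5.74 to 6.57 in the other 7 kidneys, and albumin (Alb) reached 10.28 there. The mean of 13 adrenal markers was 7.25 in the kidney of female 1265, against at most 3.74 in the other kidneys. The fat list ranged from 6.88 to 8.80 over the kidneys. Male 903 had a liver marker mean of 10.27 in its heart, against a heart median of 4.73. Its lung had a skeletal muscle marker mean of 8.28 and a liver marker mean of 5.34, against lung medians of 4.34 and 4.14. The heart marker mean of that lung was 9.27, but this mean ran from 5.84 upward over the 8 lungs, with a median of 7.96. Arrays of other organs carried such markers too. The pancreatic marker mean was 9.16 in the liver of male 1262 and 8.76 in that of female 1264, against a liver median of 4.40. The skeletal muscle mean was 7.30 in the brain of female 1264 and 7.73 in the lung of female 1265, against medians of 4.34 in both organs. In all, 12 arrays, 2 of them kidneys, had a mean over the liver, adrenal, pancreatic or skeletal muscle markers more than 1 log2 unit above the median of their organ. Results that rest on the first 4 of these arrays are given with and without the kidneys of 1264 and 1265 and the heart and lung of 903. In whole tissue, fewer cells of a type and less RNA per cell cannot be told apart.

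A gene was called enriched when the kidney mean lay above the mean of each of the other 4 organs, with the largest of the 4 p-values passing at an adjusted 0.05 (by limma, Benjamini-Hochberg) and a margin of at least 1 log2 unit over the highest organ. Of 17097 genes 542 met this rule, 3.17% of those tested. The margin was at least 2 log2 units for 285 genes, at least 4 for 119 and at least 8 for 13. In 490 of the 542 genes each of the 8 kidney arrays lay above each of the 32 others; over all genes 665 (3.89%) had such a separation. The organ closest to the kidney was the liver for 226 of the 542 genes, the lung for 146, the brain for 97 and the heart for 73. Transporters of the solute carrier (Slc) families made up 67 of the enriched genes, 19.6% of the 342 measured. Without the 4 arrays named above the count was again 542, of which 528 genes were shared, and without the 12 it was 532, of which 516 were shared.

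The genes with the widest margins encode secreted or membrane proteins and enzymes of tubule cells. Klk1, the tissue kallikrein that releases kinins, had a lowest value of 13.07, a median of 13.19 and a highest of 13.51 in the kidneys, and exceeded the liver by 9.51 log2 units (SE 0.32, adjusted p = 3.15e-24, by limma, Benjamini-Hochberg). Kallikreins form a family of very similar genes, and which members a probe set reads was not tested; 2 of its 3 probe sets met the margin. Umod exceeded the heart, its next organ, by 9.40 (SE 0.10). Kap, a proximal tubule protein named for its control by androgen, lay between 13.28 and 13.73, near the top of the array's range of 14.06, and exceeded the heart by 9.19 (SE 0.18). For these 3 genes no kidney array overlapped with any array of another organ.

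The first 15 also held enzymes and carriers. Miox, which opens the ring of myo-inositol, lay between 12.79 and 13.20 and exceeded the liver by 9.13 (SE 0.10). Cltrn (collectrin), which amino acid transporters need to reach the brush border, lay between 12.22 and 12.53 and exceeded the liver by 9.12 (SE 0.09). Further members were the steroid dehydrogenase Hsd3b4 (8.77, SE 0.09), the acyl-CoA synthetase Acsm2 (8.66, SE 0.13), the protease inhibitor Spink1 (8.45, SE 0.13), the nuclease Dnase1 (8.45, SE 0.14), the metalloprotease meprin Mep1a (11.72 to 12.43 in kidney) and the sulfate transporter Slc13a1 (7.77, SE 0.09). Slc12a1, the sodium-potassium-chloride carrier of the loop of Henle, exceeded the liver by 8.72 (SE 0.09), and Fxyd2, a regulatory subunit of the sodium pump, exceeded the heart by 7.89 (SE 0.11). The membrane proteins Tmem174 (8.44, SE 0.08) and Tmigd1 (10.35 to 12.05 in kidney) complete the 15. All 15 were enriched within females and within males, and none of their kidney arrays overlapped with another organ. In the knockout (KO) arrays the margin of these 15 genes ran from 7.48 for Slc13a1 to 9.95 for Klk1. Those arrays had no part in ranking the genes, but the choice of probe sets used all 80 arrays.

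**Figure D1:**
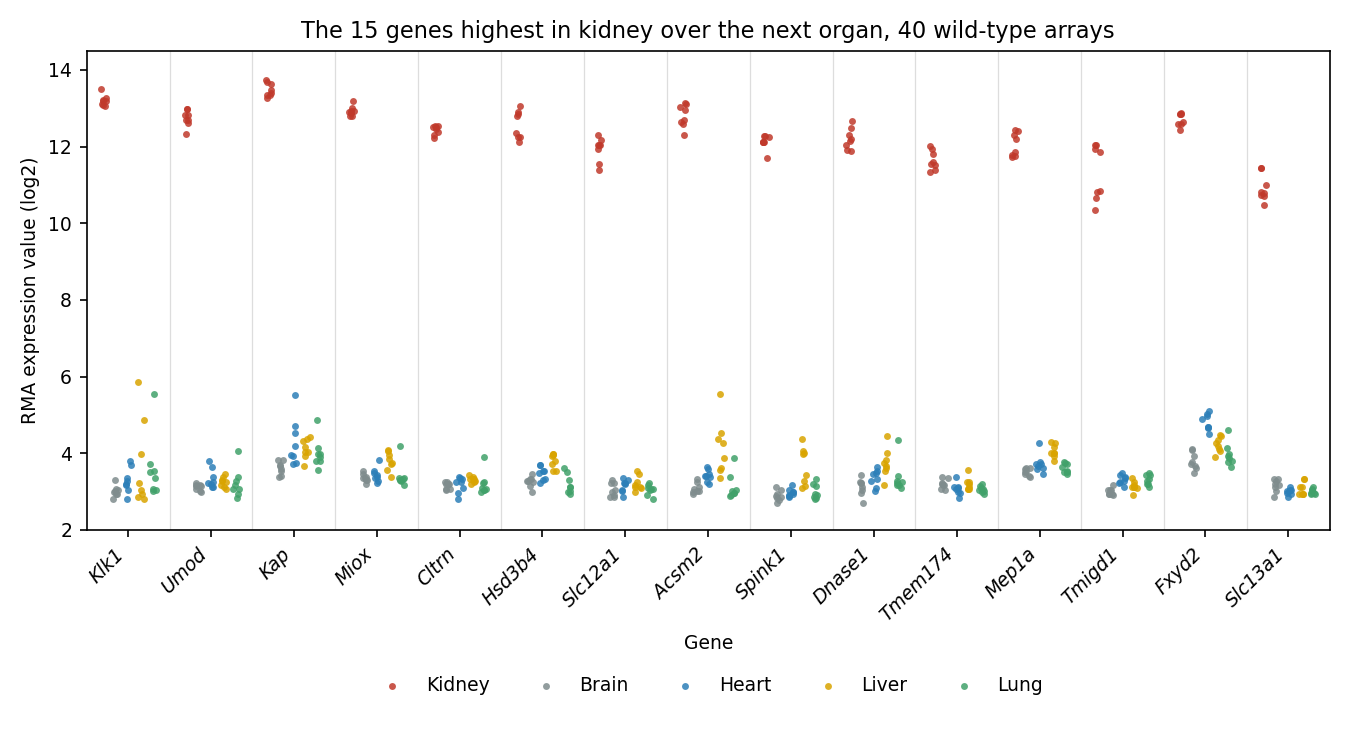
Expression (RMA value, log2) of the 15 genes with the widest kidney margin in 40 WT arrays; each point is 1 array, 8 per organ, coloured by organ. The kidney arrays lie at 10.35 or above for every gene, and no array of another organ passes 5.86.

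Promoters of these genes are shown because 5 of the 11 with an entry in the promoter table hold a match to the binding motif of HNF1, a transcription factor of tubule and liver epithelium. The HNF1 consensus was searched on both strands with up to 2 mismatches in the 250 bases before to 50 after each RefSeq start (GRCm38.p6). The 250 bases before the start follow, 5′ to 3′ on the gene's strand, with matches in capitals. The window shown for Hsd3b4 holds 3 matches and those of the other genes shown 1 each. Cltrn, Hsd3b4 and Acsm2 have 2 promoter entries each, of which 1 is shown. The entry not shown holds 0 matches for Cltrn and for Acsm2, and 3 for Hsd3b4, whose 2 windows overlap.
Umod, chr7:119479263-119479512, minus strand: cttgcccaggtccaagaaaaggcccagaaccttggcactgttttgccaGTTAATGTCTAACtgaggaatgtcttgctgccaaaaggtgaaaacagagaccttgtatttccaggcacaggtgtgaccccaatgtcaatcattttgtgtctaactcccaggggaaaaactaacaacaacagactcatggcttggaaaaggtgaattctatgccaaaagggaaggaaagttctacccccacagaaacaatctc
Cltrn, chrX:164089937-164090186, plus strand: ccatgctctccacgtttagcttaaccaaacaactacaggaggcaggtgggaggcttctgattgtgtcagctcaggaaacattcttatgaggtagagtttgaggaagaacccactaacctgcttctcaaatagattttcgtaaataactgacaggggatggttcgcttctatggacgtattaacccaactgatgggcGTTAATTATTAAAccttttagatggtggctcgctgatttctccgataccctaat
Hsd3b4, chr3:98510473-98510722, minus strand: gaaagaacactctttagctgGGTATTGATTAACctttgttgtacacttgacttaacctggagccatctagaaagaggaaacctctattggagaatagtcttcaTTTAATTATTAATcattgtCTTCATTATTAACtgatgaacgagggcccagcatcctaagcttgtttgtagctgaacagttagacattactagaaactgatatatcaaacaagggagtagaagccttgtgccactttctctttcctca
Slc12a1, chr2:125152350-125152599, plus strand: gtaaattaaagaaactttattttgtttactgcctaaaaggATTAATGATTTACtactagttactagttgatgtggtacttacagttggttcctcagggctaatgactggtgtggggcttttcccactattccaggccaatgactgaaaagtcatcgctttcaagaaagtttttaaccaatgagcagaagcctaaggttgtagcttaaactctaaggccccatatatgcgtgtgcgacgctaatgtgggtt
Acsm2, chr7:119561458-119561707, plus strand: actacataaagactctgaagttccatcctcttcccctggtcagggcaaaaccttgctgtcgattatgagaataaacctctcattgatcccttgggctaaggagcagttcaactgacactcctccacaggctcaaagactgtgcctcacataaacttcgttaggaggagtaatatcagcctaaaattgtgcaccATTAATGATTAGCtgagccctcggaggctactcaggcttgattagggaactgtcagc

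Of 13514 measured genes with a promoter entry, 179 (1.32%) had a match of this kind in at least 1 promoter. The counts were 32 of 425 enriched genes (7.53%) and 27 of 359 enriched in both sexes (7.52%). Of 47 depleted genes 0 matched, and at 1.32% over all genes so small a set may well hold none. The share was also raised among genes that differed by at least 1 log2 unit between male and female kidneys. It was 9 of 99 for those higher in females (9.09%) and 8 of 130 for those higher in males (6.15%). For HNF4, a nuclear receptor of the same tissues, the exact letters CAAAGTCCA were searched. They occurred for 0.607% of all genes with an entry, for 9 of 425 enriched genes (2.12%) and for 5 of 359 enriched in both sexes (1.39%). A motif of the androgen receptor was also searched, with up to 2 mismatches. It matched for 1.58% of all genes, 2.35% of the enriched, 1.16% of those higher in male kidney and 2.4% of those higher in female kidney. A gene with several promoter entries had more windows in which to match. These shares describe letters in a window, and binding was not measured. Hnf4a itself lay between 10.86 and 11.33 in kidney, within 0.23 (SE 0.18) of the liver, and was not enriched.

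The gene lists that follow were chosen with earlier results of these data known, and the segment lists hold genes known from kidney. High shares in them were therefore to be foreseen and are given as description, not as a test. Among the tubule segments the early proximal tubule list had the highest share of enriched genes, 20 of 23 measured, all but Anpep, Aqp1 and Slc2a2. Its median margin over the highest other organ was 4.74, against -0.55 over all genes. Cubn (cubilin), the receptor that recovers filtered proteins, had values from 11.28 to 11.91 and exceeded the heart by 7.21 (SE 0.12), and its membrane partner Amn exceeded the brain by 4.46 (SE 0.09). The cystine and dibasic amino acid carrier Slc7a9 exceeded the liver by 7.38 (SE 0.07), and its heavy chain Slc3a1, also present in liver, by 2.40 (SE 0.13). The glucose carrier Slc5a2 lay between 9.22 and 10.42 and exceeded the liver by 5.47 (SE 0.13). The lactate carrier Slc5a8 (6.50, SE 0.11), the neutral amino acid carrier Slc6a19 (6.44, SE 0.10) and the folate receptor Folr1 (6.22) were further members with wide margins. Of the 3 not enriched, the water channel Aqp1 was at 11.54 to 11.95 in kidney and differed from the lung by -0.05 (SE 0.18). Slc2a2, the basolateral glucose carrier, was at 10.59 to 11.02 and differed from the liver by -0.69 (SE 0.17).

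In the late proximal tubule 11 of 15 measured genes were enriched, with a median margin of 4.32. The organic anion carriers Slco1a6 (7.45, SE 0.06) and Slc22a19 (6.91, SE 0.10), the sugar carrier Slc5a10 (6.86, SE 0.08) and the amino acid carrier Slc6a18 (5.68, SE 0.11) led the list together with Slc7a12 and Slc7a13, whose level depended on sex as described further on. Cyp7b1, an oxysterol hydroxylase, went against the list at -2.14 (SE 0.26) from the liver, and it too differed between the sexes. Of the metabolic enzymes of the proximal tubule 10 of 24 were enriched. Cltrn was counted among them, although it is not an enzyme, and it is on the amino acid carrier list as well. Besides Miox, Acsm2 and Dnase1 the enriched members included Hao2, a hydroxyacid oxidase, at 5.36 (SE 0.16) above the liver. Dao, the D-amino acid oxidase, was at 4.99 (SE 0.23) above the brain. Bbox1, the last enzyme of carnitine synthesis, lay furthest below, at -6.61 (SE 0.23) from the liver.

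Carriers for drugs and metabolites were enriched in 16 of 25 measured members of the organic anion and cation list, with a median margin of 1.78. The cation carrier Slc22a2 lay between 9.66 and 11.14 in kidney and exceeded the liver by 6.92 (SE 0.10). Slc22a13 (6.18, SE 0.12), Slc22a22 (6.17, SE 0.11) and the anion carrier Slc22a8 (5.91, SE 0.12) followed. The urate carrier Slc22a12 (5.82, SE 0.12) and the anion exchanger Slc22a6 (5.80, SE 0.13) also had wide margins. Against these stood the efflux pump Abcb1a, at -2.36 from the lung, and Slco1a1, at -1.40 (SE 0.32) from the liver. With arrays centred on their median 14 members were enriched. Among amino acid and peptide carriers 12 of 22 were enriched. Slc38a3, a glutamine carrier, was highest in liver and differed from it by -4.44 (SE 0.13), and its 8 kidney values ran from 6.76 to 7.91.

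**Figure D2:**
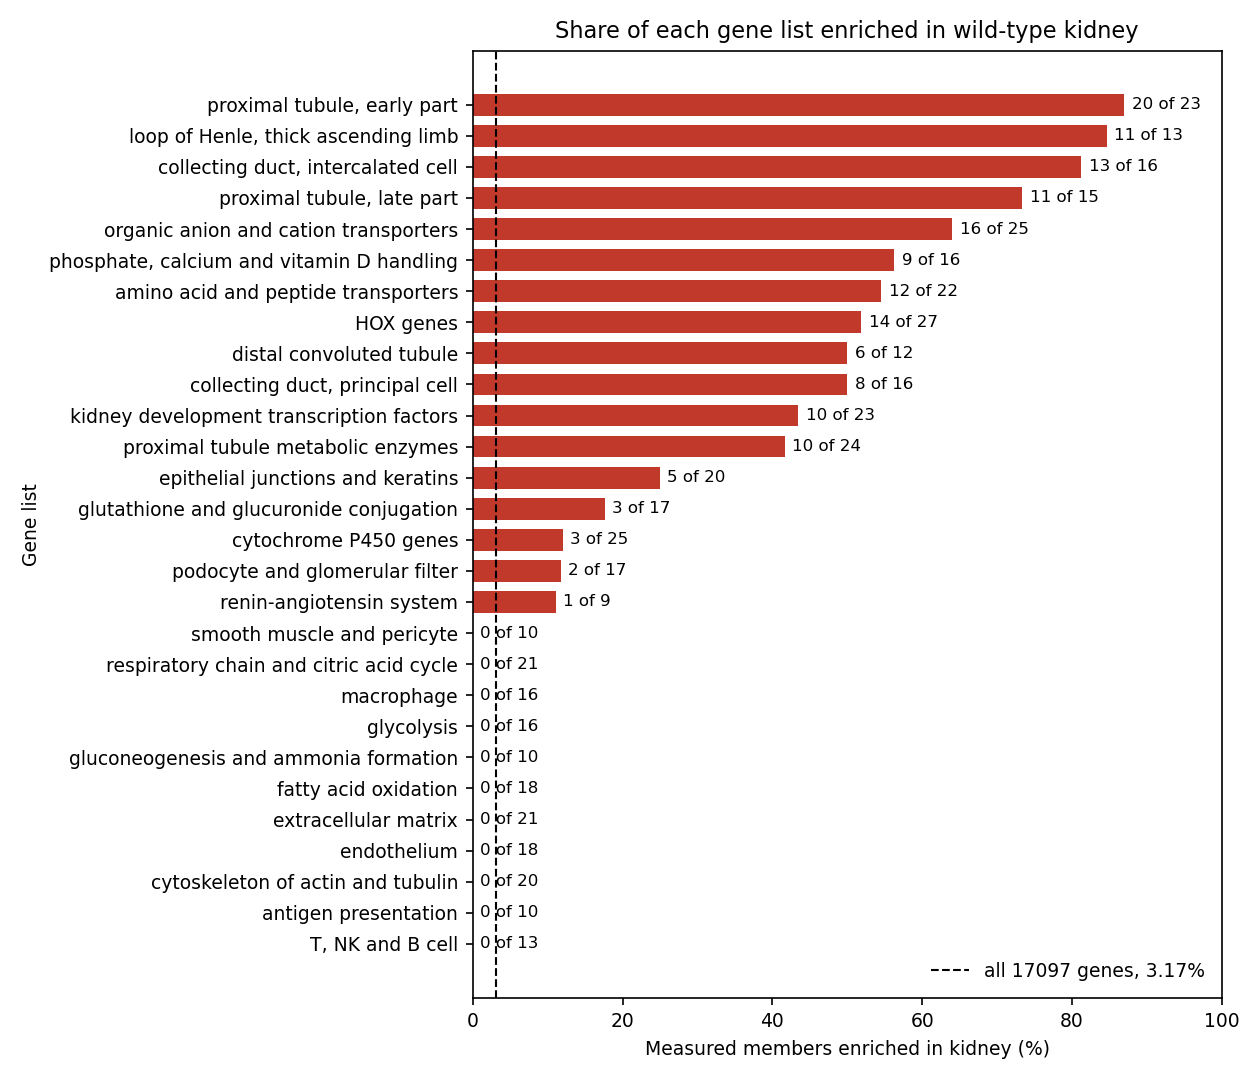
Share of the measured members of each of 28 gene lists that were enriched in WT kidney (bars, percent, with counts beside them); the dashed line is the share over all 17097 genes. Tubule segment and carrier lists stand to the right of the line at 3.17%, and 11 lists have no enriched member. The lists were chosen with earlier results of these data known.

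Of the hormones and carriers that handle phosphate, calcium and vitamin D, 9 of 16 were enriched. Klotho (Kl), the co-receptor of the phosphate hormone FGF23, lay between 10.97 and 11.25 and exceeded the brain by 5.32 (SE 0.23). The vitamin D receptor Vdr exceeded the lung by 5.34 (SE 0.12), the parathyroid hormone receptor Pth1r the liver by 4.56 (SE 0.12) and the phosphate carrier Slc34a3 the liver by 4.74 (SE 0.12). Cyp24a1, which inactivates vitamin D, lay between 8.44 and 9.66 and exceeded the liver by 5.85 (SE 0.09). Cyp27b1, which activates it, spread more widely, from 3.81 to 6.84 with a median of 4.49, and exceeded the liver by 1.60 (SE 0.25). The carriers found in many cell types did not follow, and Slc20a1 was at -2.26 (SE 0.12) from the brain.

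The thick ascending limb of the loop of Henle had 11 of 13 measured genes enriched, with a median margin of 3.94. Besides Umod and Slc12a1 these included Kcnj1, the potassium channel that feeds the carrier (6.58, SE 0.09), Egf, a growth factor shed into urine (6.30, SE 0.12), the prostaglandin receptor Ptger3 (4.88, SE 0.11) and the urea carrier Slc14a2 (4.24). Cldn16, which lines the path of magnesium between cells, lay between 7.03 and 7.65 and exceeded the liver by 3.94 (SE 0.07). The 2 members not enriched were Cldn14, highest in liver, and Nos1, highest in brain. In the distal convoluted tubule 6 of 12 were enriched. The thiazide-sensitive carrier Slc12a3 lay between 10.56 and 11.26 and exceeded the heart by 7.45 (SE 0.07), although only 1 of its 2 probe sets met the margin. Calb1, a calcium-binding protein also of neurons, was at 11.40 to 12.50 in kidney and 0.35 (SE 0.15) above the brain, which did not pass (adjusted p = 0.246, by limma, Benjamini-Hochberg). Pvalb was at -2.61 (SE 0.29) from the brain.

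Of the collecting duct lists, 8 of 16 principal cell genes and 13 of 16 intercalated cell genes were enriched. The vasopressin-controlled water channel Aqp2 lay between 8.84 and 9.96 and exceeded the liver by 5.18 (SE 0.13), and the vasopressin receptor Avpr2 exceeded it by 3.84 (SE 0.08). Apela, a peptide hormone, led the principal cell list at 5.94 (SE 0.08), followed by Hsd11b2, which protects the mineralocorticoid receptor from glucocorticoids (5.91, SE 0.10). The 3 subunits of the epithelial sodium channel were highest in lung: Scnn1a was at -0.79 (SE 0.19), Scnn1b at -0.71 (SE 0.14) and Scnn1g at -1.50 (SE 0.12) from it. The intercalated cells were marked by the anion exchanger Slc26a4 (pendrin), at 9.11 to 9.63 and 5.23 (SE 0.11) above the brain, the membrane carbonic anhydrase Car15 (5.22, SE 0.12), the ammonia channel Rhcg (5.03, SE 0.09) and the transcription factor Foxi1 (4.81, SE 0.07). The proton pump subunits Atp6v0a4 (4.65, SE 0.09) and Atp6v1b1 (4.43, SE 0.17) were enriched as well, and Atp6v1c2, at -3.09 from the lung, went against them. Slc4a1, the anion exchanger of this cell and of red blood cells, exceeded the heart by 2.44 (SE 0.26), while of the other 6 measured blood markers none was enriched.

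Glomerular genes were less set apart, with 2 of 17 measured podocyte genes enriched and a median margin of -0.60. Nphs1 (nephrin), the core of the slit diaphragm, lay between 4.94 and 6.15 and exceeded the liver by 1.32 (SE 0.13), and the transcription factor Foxc2 exceeded the heart by 1.27 (SE 0.13). Wt1, a podocyte transcription factor, was at 4.17 to 5.65 and 0.27 (SE 0.16) from the heart (adjusted p = 0.829, by limma, Benjamini-Hochberg). The basement membrane collagens Col4a3 and Col4a4 were within 0.12 of the lung. Markers of the urothelium, which lines the renal pelvis, were enriched in 2 of 10 cases, Psca (2.25, SE 0.15) and Upk3a (1.65, SE 0.12). Of 9 measured genes of the renin-angiotensin system Mme alone was enriched (1.32, SE 0.20), and it was not with renewed quantile normalisation, with arrays centred on their median or without the 12 arrays (0.84). Angiotensinogen (Agt) was at -3.03 (SE 0.14) from the liver.

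Transcription factors of the body axis and of kidney development were enriched in part. Of 27 measured HOX genes 14 were enriched, 13 of them in both sexes, with a median margin of 1.03. Hoxa10 lay between 7.88 and 8.38 against at most 3.40 in the other organs, and exceeded the liver by 4.97 (SE 0.08). Hoxd9 (4.88, SE 0.08), Hoxd8 (4.82, SE 0.10), Hoxc10 (4.08, SE 0.09) and Hoxb8 (3.78, SE 0.14) followed. The lung was higher for 2 members, Hoxa5 at -2.22 (SE 0.11) and Hoxb5 at -1.07 (SE 0.10). Among other transcription factors of kidney development 10 of 23 were enriched. Pax8 lay between 7.37 and 8.52 and exceeded the liver by 3.94 (SE 0.11), Sim1 exceeded the heart by 3.61 (SE 0.09) and Emx2 the brain by 2.98 (SE 0.10). Osr1 (-2.27, SE 0.17) and Irx2 (-2.16, SE 0.15) were higher in lung.

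None of 10 measured genes of gluconeogenesis and ammonia formation was enriched, although Fbp1, which makes fructose 6-phosphate, was at 12.79 to 13.06 in kidney. Fbp1 differed from the liver by 0.13 (SE 0.38) and G6pc, which releases glucose, by 0.22 (SE 0.16). The single probe set for Pck1, the enzyme that commits carbon to glucose, lay between 2.90 and 4.48 in kidney and at 4.78 or below in the other organs, so it says nothing of that enzyme. For fatty acid oxidation 0 of 18 were enriched, yet 18 of 18 exceeded the brain and 13 the lung by at least 1 log2 unit at an adjusted p under 0.05 (by limma, Benjamini-Hochberg), and 7 were below the heart and 4 below the liver. Of all genes 17.9% were above the brain, 12.1% above the lung, 10.7% below the heart and 7.52% below the liver. Acadm, the medium-chain dehydrogenase, differed from the heart by 0.02 (SE 0.09). For the respiratory chain and citric acid cycle 0 of 21 were enriched, 17 exceeded the lung and 4 were below the heart. The liver exceeded the kidney in 16 of 25 cytochrome P450 genes, led by Cyp3a11 at -9.01 (SE 0.63), and 3 were enriched, Cyp24a1, Cyp27b1 and Cyp2j13. Of glutathione and glucuronide genes 3 of 17 were enriched, among them the plasma peroxidase Gpx3, at 13.58 to 13.82 and 1.59 (SE 0.13) above the lung; the count was 5 with renewed quantile normalisation and 1 with arrays centred on their median.

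Against single organs, the kidney differed by at least 1 log2 unit most often from the brain. With no minimum, 67.5% of genes differed from brain, 59.1% from heart, 64.1% from liver and 62.8% from lung. The counts that follow ask for at least 1 log2 unit and an adjusted p under 0.05 (by limma, Benjamini-Hochberg). By that rule 3054 genes were higher (17.9%) and 2735 lower (16%) than in brain, and 2142 higher (12.5%) and 1837 lower (10.7%) than in heart. Against liver 2178 were higher (12.7%) and 1286 lower (7.52%), and against lung 2070 higher (12.1%) and 2494 lower (14.6%). The balance depended on the scaling. Against liver, 62.9% of the called genes were higher in kidney as deposited and 37.5% with arrays centred on their median, which moved the median of all genes to -0.53. Against heart the share went from 53.8% to 45% and against lung from 45.4% to 52.4%.

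Epithelial genes separated into those of the kidney and those shared with the lung. The kidney cadherin Cdh16 lay between 12.23 and 12.50 and exceeded the lung by 5.85 (SE 0.12), and the tight junction protein Cldn8 by 4.18 (SE 0.14). In all, 5 of 20 measured epithelial genes were enriched, and 20 of 20 exceeded the brain. The keratins went the other way, with Krt19 at -4.45 (SE 0.16) from the lung and Krt18 at -2.87 (SE 0.16) from the liver.

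A gene was called depleted by the mirror rule, lower than each of the 4 other organs and at least 1 log2 unit below the lowest. This applied to 67 genes, 0.392% of those tested, and to 11 of them by at least 2 log2 units. In 54 of the 67 each kidney array lay below each other array; over all genes 94 (0.550%) did. The lowest other organ was the heart for 21 genes, the liver for 21, the lung for 13 and the brain for 12. With a margin of at least 1 log2 unit asked of all probe sets of a gene, 9 of 43 depleted genes with several probe sets kept the call, against 106 of 216 enriched genes, so single probe sets weigh more in the depleted set. No measured solute carrier gene of the 342 was depleted. At 0.392% over all genes very few would be, so this count cannot be read as a lack.

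The depleted genes were of mixed function. Nrn1 (neuritin), a protein of growing neurites, had a lowest kidney value of 3.55 and a highest of 4.56, and lay 3.03 log2 units (SE 0.16) below the heart, the lowest other organ (adjusted p = 4.75e-18, by limma, Benjamini-Hochberg). Its values in brain were 10.48 to 10.90 and in liver 11.08 to 11.98. Vtn (vitronectin), an adhesion protein of plasma, was at 3.38 to 4.63 in kidney and 6.64 to 7.03 in lung, a difference of -2.95 (SE 0.15). Hopx, a homeodomain cofactor of heart and lung development, was at 7.38 to 8.39 in kidney against 12.82 to 13.13 in lung, and differed from the liver by -2.73 (SE 0.12). The kidney ranges of these 3 genes do not overlap with those of any other organ.

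Several of the other depleted genes act in lipid, glycogen or amine metabolism. Ppp1r3c, which brings a phosphatase to glycogen, was at -2.59 (SE 0.18) from the lung, and 1 of its 2 probe sets met the margin. Maob, a monoamine oxidase, was at -2.33 (SE 0.11) from the brain, Fabp5, a fatty acid carrier, at -2.20 (SE 0.15) from the heart, and Aldh1a1, a retinaldehyde dehydrogenase, at -1.90 (SE 0.13) from the heart. St3gal5, which makes the ganglioside GM3, was at -2.16 (SE 0.12) from the lung. Fxyd1 (phospholemman), a regulator of the sodium pump, was at 6.30 to 7.69 in kidney and at -2.16 (SE 0.11) from the brain, whereas its relative Fxyd2 was among the most enriched genes. S1pr1, the sphingosine phosphate receptor of endothelium and lymphocytes, was at -2.26 (SE 0.19) from the liver. The rest of the 15 were Zcchc24 (-2.08, SE 0.10), the ubiquitin ligase Rnf144b (-2.02, SE 0.13; 1 of 2 probe sets), Dipk2a (-1.93, SE 0.18), the transcription factor Foxp2 (-1.91, SE 0.15; 2 of 5 probe sets) and Psd3 (-1.84, SE 0.09). All 15 were depleted within each sex, and in KO arrays their differences from the lowest other organ ran from -1.65 for Foxp2 to -3.09 for Nrn1.

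**Figure D3:**
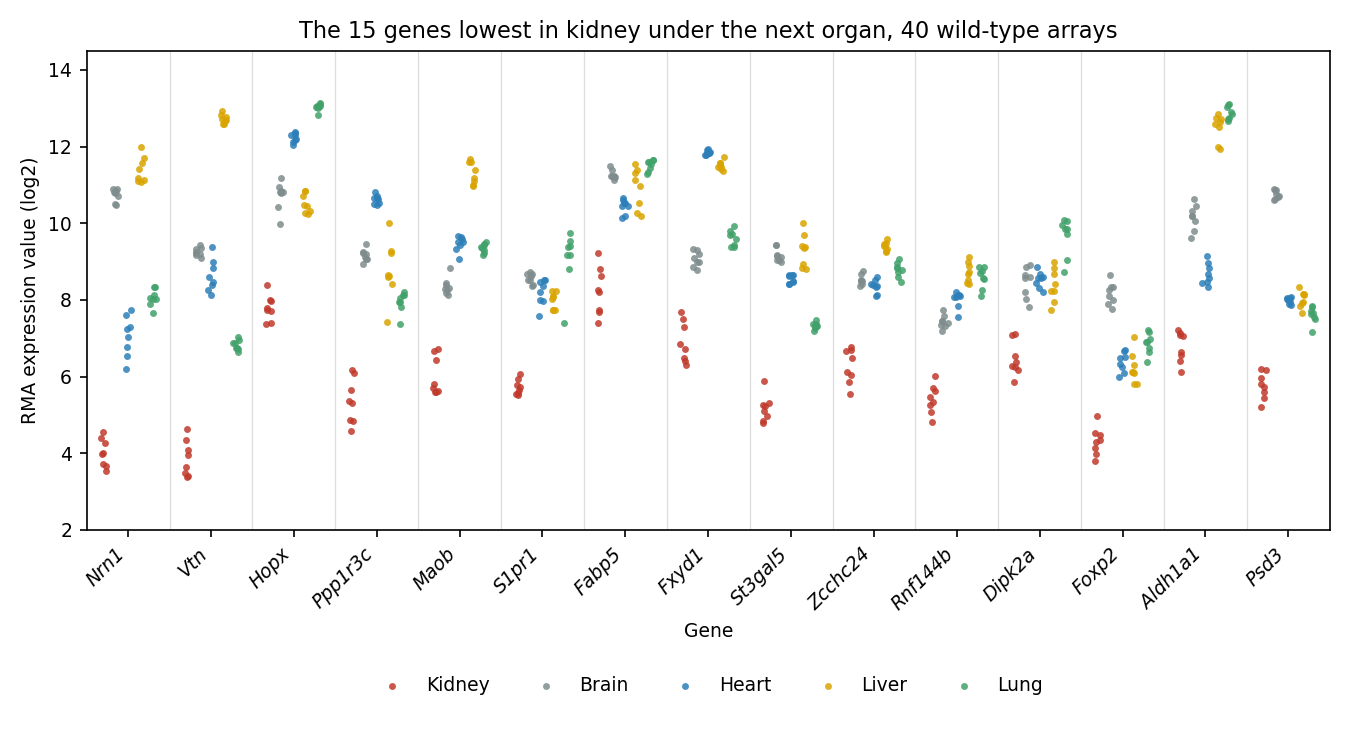
Expression (RMA value, log2) of the 15 genes with the widest margin below the lowest other organ in 40 WT arrays; each point is 1 array, 8 per organ, coloured by organ. The kidney arrays lie lowest for each gene, down to 3.38 for Vtn, while the order of the other organs differs from gene to gene.

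Of the 40 gene lists, depletion reached 1 gene, the lung marker Hopx. Blood vessel, matrix and immune genes were lower in kidney than in lung, without being below every organ. Below the lung by at least 1 log2 unit at an adjusted p under 0.05 (by limma, Benjamini-Hochberg) were 15 of 18 endothelial genes, 18 of 21 matrix genes, 9 of 10 smooth muscle and pericyte genes, 10 of 16 macrophage genes, 9 of 13 lymphocyte genes and 10 of 10 genes of antigen presentation, against 14.6% of all genes. The clotting factor Vwf was at 4.32 to 5.11 in kidney and -6.47 (SE 0.14) from the lung, and the endothelial junction gene Cldn5 at -4.59 (SE 0.15). Emcn, a sialomucin of capillaries, was within 0.02 (SE 0.26) of the lung. Lyz2, a lysozyme of macrophages, was at -4.56 (SE 0.12) and Postn, a matrix protein, at -4.85 (SE 0.23) from the lung. For macrophage genes the kidney had the lowest mean of the 5 organs in 8 of 16 cases, against 2064 of all 17097 genes. The median difference of the 16 genes from the lowest other organ was -0.01.

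The rules were then applied within each sex. In females 517 genes were enriched (3.02%) and in males 582 (3.40%), and 461 (2.70%) met the rule in both. Depletion was found for 55 genes in females (0.322%), 83 in males (0.485%) and 45 (0.263%) in both. A further 121 genes were enriched in males alone and 56 in females alone. Such a split is not by itself a difference between the sexes, and the difference of the kidney effect (kidney minus the mean of the other organs) passed for 75 of the 121 and 20 of the 56. These enriched genes were counted only where the effect was larger in the sex that met the rule. Depleted genes were counted whatever the direction of the difference. Of the 38 genes depleted in males alone 12 passed that test, and of the 10 in females alone 0 did. Over all genes the kidney effect was larger in males for 633 genes (3.70%) and larger in females for 379 (2.22%). All 20 enriched early proximal tubule genes and all 11 of the thick ascending limb were enriched in both sexes, as were 12 of 13 of the intercalated cells.

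Within the kidney 746 genes were higher in males (4.36%) and 820 in females (4.80%) at an adjusted p under 0.05 (by limma, Benjamini-Hochberg). The difference reached 1 log2 unit for 162 of the male and 127 of the female genes. Among the 542 enriched genes 109 were higher in males and 84 in females. The balance depended on scaling: 47.6% of the called genes were higher in males as deposited and 68.8% with arrays centred on their median. The total of 1566 fell to 977 without the 4 arrays named above, 2 of them female kidneys, to 1095 without the 12 arrays with raised markers of another organ and to 1033 without the kidney of male 901. On the X or Y chromosome lay 53 of the called genes, 3 of them among the 12 measured genes of the Y. The share of these chromosomes among all genes was not counted, so the 53 cannot be read as an excess.

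The 10 genes with the largest excess in males included carriers and enzymes of the proximal tubule. Slc7a13, a carrier of acidic amino acids and cystine in the late proximal tubule, was at 12.78, 12.89, 12.95 and 12.97 in the male kidneys and at 4.17, 4.78, 5.09 and 6.93 in the female kidneys. It was 7.65 log2 units higher in males (SE 0.29, adjusted p = 4.34e-21, by limma, Benjamini-Hochberg), with no overlap between the sexes, and it was enriched in males by 8.58. In females the margin was 1.25, which met the rule, but it rested on the kidney of 1265. Without that kidney it was 0.69, without the 4 arrays 0.64, without the 12 arrays 0.33 and with arrays centred on their median 0.79, each under the minimum of 1, and 2 female kidneys lay within the range of the other organs (up to 4.84). Cyp2j13, a cytochrome P450, was at 9.60, 10.17, 10.40 and 10.75 in males and between 3.17 and 3.38 in females. Its difference was 6.96 (SE 0.16), and it was enriched in males alone (6.64, against -0.46 in females). Acsm3, a medium-chain acyl-CoA synthetase, was at 11.47 to 12.30 in males and 4.26 to 5.86 in females, and livers of both sexes lay between, at 9.41 to 10.11. It was therefore 2.24 above the highest organ in males and -4.48 from it in females.

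Slco1a1, an organic anion carrier, was 7.07 higher in male kidneys (SE 0.45), where it lay between 10.51 and 11.01, but it was not enriched, since livers reached 10.94. Cyp7b1 (6.17, SE 0.36), the protease inhibitor Pzp (5.97, SE 0.52) and Cyp4a12a, which hydroxylates arachidonic acid (5.97, SE 0.38), were likewise not enriched in either sex, although Cyp4a12a met the rule in females (1.03) without the 12 arrays. The glucuronosyltransferase Ugt2b37 (5.51, SE 0.38) and the kinesin Kif20b (4.42, SE 0.12) were enriched in males alone, by 3.29 and 4.46. Eif2s3y was higher by 5.05 (SE 0.15). Of 10 genes listed as known for higher expression in male mouse kidney 9 were higher in males, a list chosen with earlier results of these arrays known. The exception was Kap, with 13.28 to 13.39 in females and 13.48 to 13.73 in males, a difference of 0.29 (SE 0.25, adjusted p = 0.614, by limma, Benjamini-Hochberg); its values lie near the top of the range. Odc1, which makes polyamines, was 1.59 higher in males (SE 0.20) and enriched in both sexes.

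**Figure D4:**
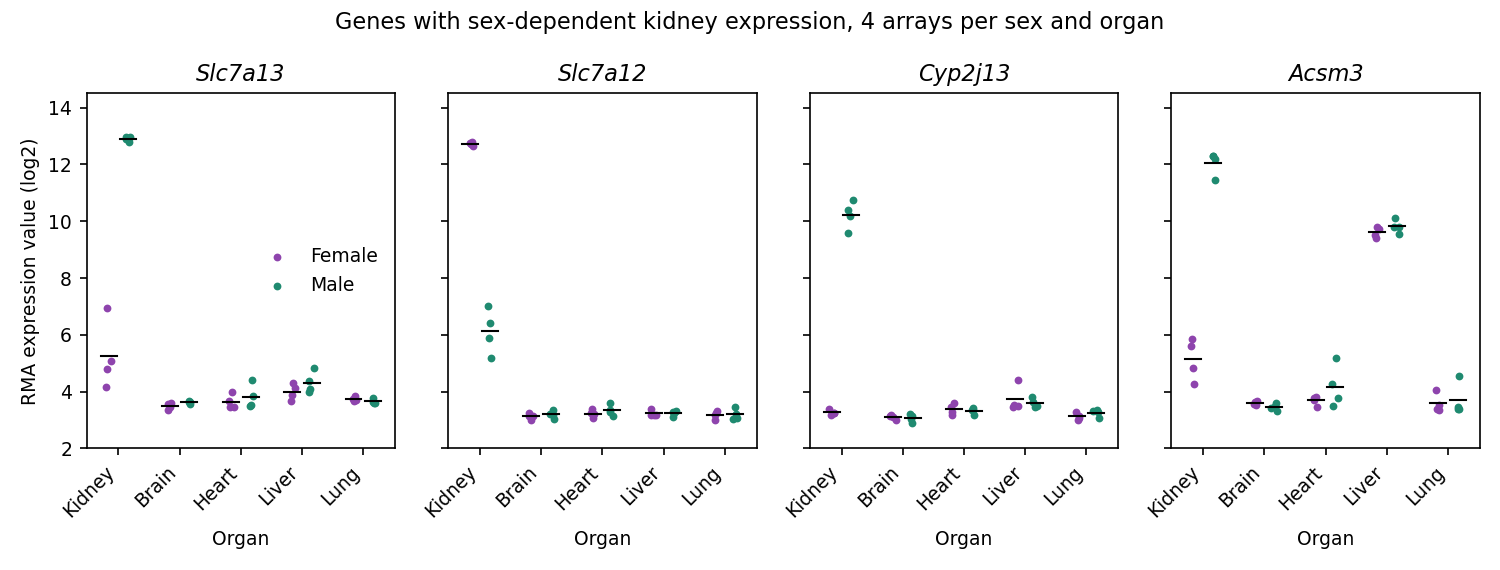
Expression (RMA value, log2) of Slc7a13, Slc7a12, Cyp2j13 and Acsm3 by organ and sex in 40 WT arrays; points are arrays, 4 per sex and organ, and black lines are group means. The sexes separate in kidney, by 7.65 for Slc7a13 and -6.60 for Slc7a12 (male minus female), and Acsm3 is also present in livers of both sexes.

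The female genes were led by another amino acid carrier. Slc7a12 was at 12.64, 12.71, 12.75 and 12.78 in the female kidneys and at 5.17, 5.87, 6.42 and 7.02 in the male kidneys. Its male minus female difference was -6.60 (SE 0.19, adjusted p = 5.64e-25, by limma, Benjamini-Hochberg), and it was enriched in both sexes, by 9.49 in females and 2.78 in males. The sexes did not overlap, and the pattern was the reverse of that of Slc7a13. Abcc3, an efflux pump, was at 7.71 to 9.13 in females and 4.26 to 4.74 in males (-3.89, SE 0.25), and Slc22a27, of the organic anion carriers, at 9.79 to 10.30 and 5.92 to 7.04 (-3.83, SE 0.27). Slc22a27 was enriched in both sexes, and Abcc3 was higher in liver.

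Enzymes of amino acid breakdown were among the female genes. Kynu, of the tryptophan pathway, differed by -3.35 (SE 0.16), Bhmt, which methylates homocysteine, by -3.08 (SE 0.71) and Arg2, the mitochondrial arginase, by -2.96 (SE 0.16). Arg2 was at 8.41 to 8.79 in females and 5.33 to 5.78 in males, and was enriched in females alone (2.55, against 0.10 in males). The carbonyl reductase Cbr1 was at 11.26 to 11.67 in females and 8.48 to 8.80 in males, and it was 1.03 above the highest organ in females (0.58 with arrays centred on their median) and -1.11 from it in males. Gbp3, an interferon-induced GTPase (-2.74, SE 0.23), Slc17a2 (-2.69, SE 0.19) and Xist (-6.55, SE 0.16) complete the 10. Kynu and Bhmt were higher in liver than in kidney in both sexes.

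Sex differences were also counted by list, beside 4.36% of all genes higher in males and 4.80% in females. In the organic anion and cation list 9 of 25 genes were higher in males and 6 in females, and in the early proximal tubule 5 of 23 and 4. Male kidneys had more of Slc22a22 (1.63, SE 0.15), Slc5a8 (1.47, SE 0.16), Slc22a6 (1.42, SE 0.18) and Slc22a12 (1.24, SE 0.18), each of them enriched in both sexes. In the thick ascending limb 7 of 13 genes were higher in females and 0 in males, from -0.38 for Cldn16 to -0.86 for Ptger3. The median male minus female difference of the 13 genes was -0.38. The count was 3 with arrays centred on their median (median -0.29) and 4 without the 4 arrays named above (median -0.35). In intercalated cells 5 of 16 were higher in females, 4 with centred arrays and 3 without those 4 arrays.

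Matrix genes were higher in females in 10 of 21 cases, with the widest difference, -1.25, for Lum, and macrophage genes in 6 of 16. Without the kidneys of females 1264 and 1265 and the heart and lung of male 903 the counts were 1 and 2, without the 12 arrays 3 and 3, and without the kidney of male 901 they were 4 and 2. The median male minus female difference of the matrix genes was -0.67 over all arrays, -0.46 without the 4 and -0.61 without 901, and that of the macrophage genes -0.63, -0.48 and -0.51. Over all genes the number higher in females went from 820 to 396 without the 4 arrays, 473 without the 12 and 503 without 901. The fat marker mean was highest in both of those female kidneys, at 8.80, against 6.88 to 8.39 in the others; its part in these counts was not tested.

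The KO kidneys, which share no animal with the WT kidneys, gave the same picture for organs and, less often passing the threshold, for sex. Of the 542 enriched genes 518 had a margin of at least 1 log2 unit in KO arrays, and 49 of the 67 depleted genes were at least 1 log2 unit below. Of the 1566 genes that differed by sex in WT kidney 1536 had the same sign in KO kidney and 636 passed there too. Of the 289 with at least 1 log2 unit 287 had the same sign. In KO kidneys Slc7a13 differed by 7.17, Cyp2j13 by 6.78, Acsm3 by 6.37 and Slc7a12 by -6.01.

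**Figure D5:**
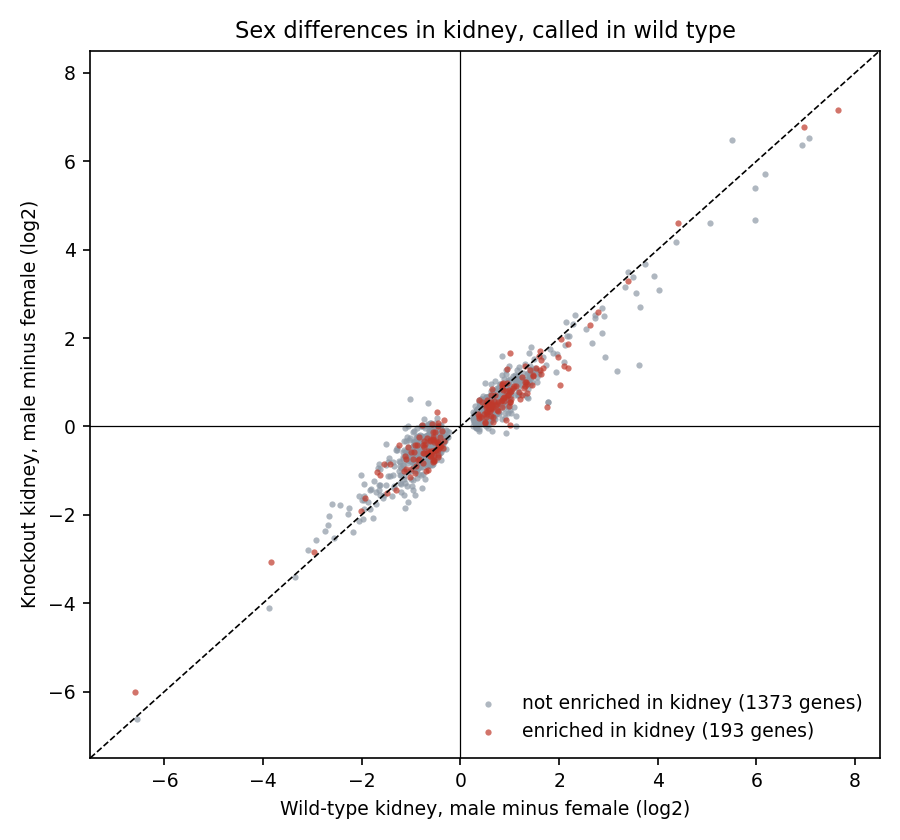
Male minus female difference (log2) in WT kidney, horizontal, against that in KO kidney, vertical, for the 1566 genes called in WT; each point is a gene, in red if enriched in kidney, and the dashed line marks equal values. Of these genes 1536 have the same sign in both, and Slc7a13 (7.65 and 7.17) and Slc7a12 (-6.60 and -6.01) lie near the ends.

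At the margin that defined enrichment, Tulp3, Sufu and Slc25a48 lay just inside, at 1.003 each, and Ildr1 (0.997), Vwa1 (0.999) and Plat (0.999) just outside.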

How the data were processed

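The 80 arrays were grouped by genotype, sex and organ from their titles, 4 per group; each number in a title was taken to be an animal. The values, as the authors deposited them, are on a log2 scale, 1 per probe set. Per the submitters' processing notes, the tools were RMA, Partek and the Affymetrix Expression Console; versions are not given in the sources used here; whether all organs were normalised together is not stated either. RMA fits signal against background and draws arrays to a common distribution, which compresses differences from dim probe sets and can shift levels between organs that use different gene numbers.

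Of 45141 probe sets 104 controls were left out. Of the rest 28898 had a single gene, 551 several and 15588 were unnamed, and 28689 matched RefSeq genes of GRCm38.p6 by gene ID. For each gene the probe set brightest on average across the 80 arrays was kept; 17097 genes resulted, and 7179 had more than 1 to choose from. No 2 arrays were identical.

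Linear models over the 40 WT arrays, with 10 groups of organ by sex, were fitted with limma 3.58.1 in R 4.3.3 and eBayes, without a block. Organ contrasts averaged the sexes equally. The largest of 4 two-sided p-values, set to 1 where signs differed, was adjusted over all genes; the threshold was 0.05 and the margin 1 log2 unit. The sex contrast had no margin. Between a kidney and another organ of its animal the median correlation of deviations was 0.0877 (29 pairs, 13 above 0.1), and between 572 other pairs -0.00711, so a fit with the animal as a block (correlation 0.057) is an alternative in which the pairing comes from the animal numbers. Fits were tested on simulated data.

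Members and the 40 gene lists (689 entries, 611 measured) were chosen with earlier results of these data known. Named were the 15 genes with the widest margin in each direction, up to 10 by sex in each direction and 5 by sex-dependent kidney effect, up to 6 of each list by margin and members against the rest, and Umod, Slc34a1 and Ces1c; other list members shown, such as sodium channel subunits, were picked with their values in view. Alternatives were other probe set rules, scalings, fits, margins, KO arrays and leaving out arrays; leaving out 4 or 12 arrays together was added after the data were seen. The number of arrays limits the precision.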

Additional observations from a re-analysis of the deposited data

Results flagged for a closer look

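A kidney value lay far from the rest of its group in 9 of 81 groups examined; chance flags about 1 in 20. Spink1 was 11.71 in male 902 against 12.11 or above in the other kidneys, and Acsm3 was 11.47 in the same kidney among males. St3gal5 was 5.89 in female 1265, whose adrenal marker mean was 7.25. Ces1c was 5.21 in female 1264. Slco1a1 was 4.02 in female 936 among females, whose skeletal muscle marker mean was 4.03. In female 876 Arg2 was 8.79 among females and the blood marker mean was 5.67.

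The kidney effect (kidney minus the mean of the other organs) differed between the sexes most for these genes, given as male minus female with p-values by limma, Benjamini-Hochberg. Slc7a13 differed by 7.52 (SE 0.33, adjusted p = 4.25e-19), Cyp2j13 by 6.98 (SE 0.18), Acsm3 by 6.76 (SE 0.32), Ugt2b37 by 5.94 (SE 0.42) and Slco1a1 by 5.79 (SE 0.51). In the other direction Slc7a12 differed by -6.65 (SE 0.21, adjusted p = 2.49e-23), Abcc3 by -3.83 (SE 0.28), Kynu by -3.51 (SE 0.18), Bhmt by -3.56 (SE 0.79) and Fabp1, a fatty acid carrier of liver, by -3.12 (SE 0.85). Bhmt and Fabp1 reached 9.90 and 10.18 in a heart array, and Fabp1 did not pass in KO arrays.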

How the results depend on the processing

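Of the values of single genes recomputed under other settings, 10728 of 10743 kept direction and side of the threshold, 8 lost and 7 gained the call, and 0 reversed; under the 2 alternatives added later 429 of 430 kept both and 1, Mme, lost the call. With all probe sets of a gene averaged, 41 genes were depleted. With a smaller margin, of 1.5-fold, the counts were 144 depleted, 96 depleted in both sexes, 6156 against heart and 5601 against liver. With a margin of 2 they were 285 enriched, 246 in both sexes, 11 depleted, 6 in both sexes, 3088 against brain, 1806 against heart, 1567 against liver and 1997 against lung. KO arrays in place of WT gave 926 genes by sex and 574 for the kidney effect by sex; the 4 arrays left out gave 977 by sex, the 12 left out 1095 by sex and 826 for the kidney effect by sex (a group of 1 was then assumed to vary like the others), and all 16 kidneys with genotype as a term 3796. Centring arrays on their median moved the median of all genes from -0.06 to -0.25 against heart and from 0.03 to 0.19 against lung. Of the genes called against heart 45% were then higher in kidney, against 53.8%.

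Leaving out each array in turn gave 538 to 546 enriched, 63 to 73 depleted, 455 to 465 enriched in both sexes, 38 to 47 depleted in both, 5777 to 5823 against brain, 3948 to 4004 against heart, 3452 to 3506 against liver, 4531 to 4592 against lung, 1033 to 1754 by sex and 735 to 1129 for the kidney effect by sex. The lowest count by sex was without the kidney of male 901. With the animal as a replicate block, paired by animal number, the counts were 542 enriched (540 shared), 67 depleted and 1578 by sex. The causes of these shifts were not tested. Signal near background limits the size of differences for dim genes.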
